A study of Homo sapiens with 18 samples.

Results

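Replicate 1 and replicate 2 of the drug experiment in MDA-MB-231, a mesenchymal triple-negative breast cancer cell line, were compared with each other. The members were the 4 distinct libraries of cells treated for 72 h with DMSO, the solvent, or with 1 μM GSK126, which blocks the enzymatic activity of the histone methyltransferase EZH2, out of 10 distinct libraries and 18 sample records in the series. Membership followed the labels alone: 1 DMSO and 1 GSK126 library carry replicate number 1, and 1 DMSO and 1 GSK126 library carry number 2. The groups shared the line, the medium with serum, the extraction reagent and a poly(A)-selected, strand-specific library kit. The other 6 libraries came from the same line under puromycin selection after transduction with a control shRNA, shEZH2 or shE2F1, and served only for reference. No label says whether a replicate number stands for a separate culture, extraction, library preparation or sequencing run. These sources therefore cannot be told apart, and p-values measure only the spread between these libraries.

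A cultured line is not a fixed state. Medium age, density and handling are known to move immediate early genes, which serum and growth factor signalling through the MAP kinases induces within minutes, as well as metallothioneins, heat shock genes and cell cycle genes. The measured level of a gene also depends on the library, since short and GC-rich transcripts are recovered to different degrees when RNA fragments differ in size.

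The libraries held 20055550 expected counts in DMSO replicate 1, 18398902 in DMSO replicate 2, 16940131 in GSK126 replicate 1 and 17184904 in GSK126 replicate 2, so 3 counts correspond to between 0.15 and 0.177 CPM, the count scaled to the size of its library. Expected counts are reads per gene, with reads that map to several genes divided between them. The fragments of replicate 1 were longer. The gene length minus the effective length, which follows the mean fragment length of a library, was 204.8 bases in DMSO and 204.0 in GSK126 for replicate 1, and 175.3 and 170.8 for replicate 2. In the 6 knockdown libraries it lay between 163.1 and 178.8 bases. The mean GC content of the counted genes, weighted by count, was 49.42% and 49.46% in replicate 1 against 50.13% and 50.21% in replicate 2, and the weighted mean transcript length was 3070 and 3032 bases against 2887 and 2855. Fragment size, GC content and length thus moved exactly with the replicate number, and each gene group below is given with a value corrected for GC content and length.

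**Figure D1:**
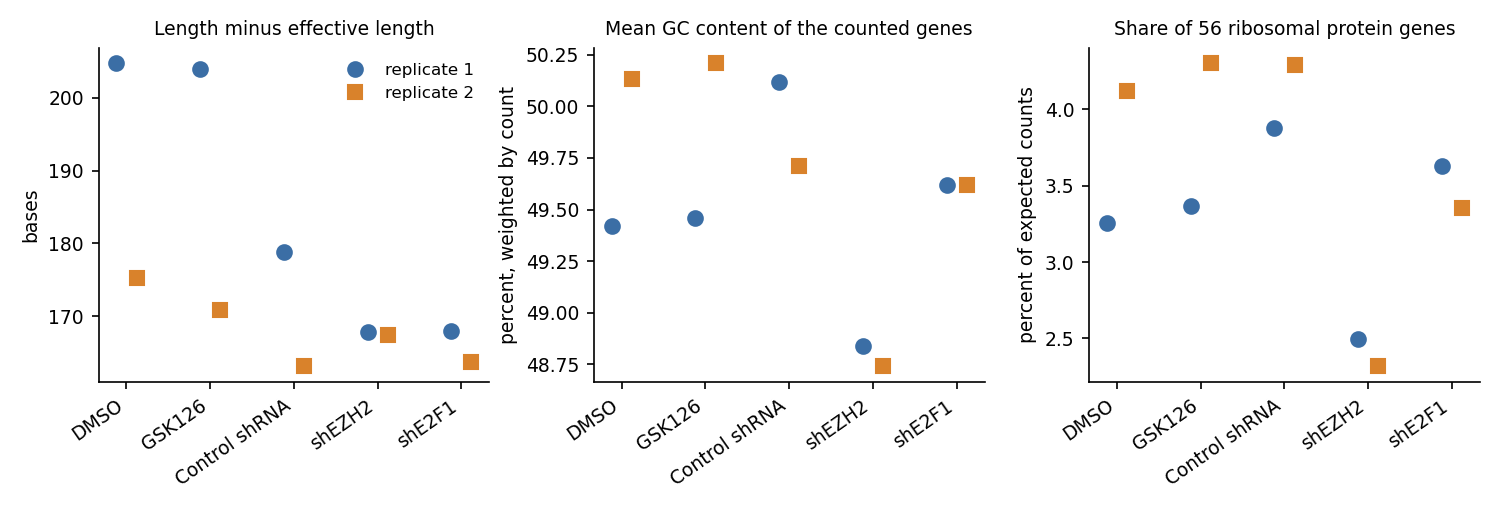
Each point is 1 of the 10 distinct libraries, by group and replicate number: length minus effective length in bases (left), mean GC content of genes weighted by their counts in percent (middle), and the percent of expected counts in 56 cytosolic ribosomal protein genes (right). The vertical axes do not start at 0. In DMSO and GSK126 the libraries of replicate 1 lie at 204.8 and 204.0 bases, above all others, and in each panel the 2 drug libraries of replicate 1 lie apart from those of replicate 2.

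The replicate number accounted for more of the variation between the 4 libraries than the inhibitor did. Over 11907 genes with a mean of at least 50 counts, 60.7% of the sum of squares of log2 CPM lay between replicates, 29.5% between treatments and 9.77% in the remainder. In the knockdown libraries, over 11849 genes, 2.67% lay between replicates and 93.1% between the shRNA groups. The median absolute difference between replicates was 0.177 on the log2 scale in DMSO and 0.18 in GSK126, against 0.10 and 0.101 between treatments within replicate 1 and within replicate 2. The knockdown pairs differed by a median of 0.151 (control shRNA), 0.129 (shEZH2) and 0.094 (shE2F1), less than the drug pairs. By large differences the order was another: 2.98% of genes in DMSO and 3.15% in GSK126 lay more than 1.5-fold apart between replicates, against 3.88%, 3.41% and 1.07% in the knockdown pairs. The drug pairs shared their direction: the difference in DMSO and that in GSK126, which share no library, had the same sign in 81.4% of the 11907 genes, with r = 0.72 across genes. With GC content and length removed from both, r was 0.53. Genes are not independent replicates, and both pairs share the same contrast in fragment size.

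**Figure D2:**
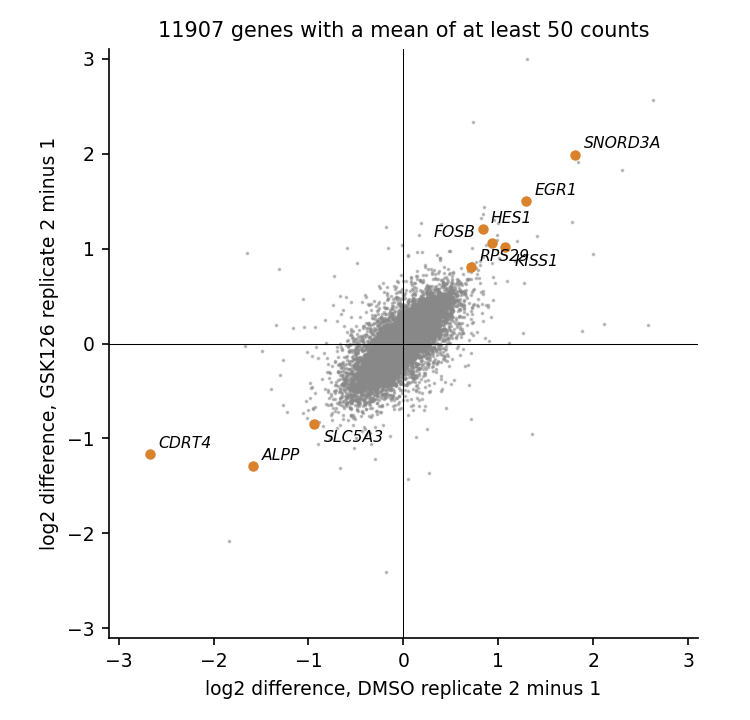
Log2 difference between replicate 2 and replicate 1 in GSK126 (vertical) against that in DMSO (horizontal), 1 point per gene, for 11907 genes, on CPM with 0.5 added and drawn within ±3. Named genes in orange lie near the diagonal, EGR1, HES1, KISS1 and SNORD3A on the side of replicate 2 and ALPP and SLC5A3 on that of replicate 1, while CDRT4 lies off it.

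With treatment as a block, edgeR's quasi-likelihood test covered 14632 genes. An adjusted p under 0.01 (Benjamini-Hochberg) together with a change of more than 2-fold was reached by 123 genes, 0.841% of those tested, 78 of them higher (0.533%) and 45 lower (0.308%) in replicate 2. An adjusted p under 0.01 alone, called passing below, was reached by 4473 genes (30.6%), 2177 higher (14.9%) and 2296 lower (15.7%). Most of these differences were small: 4134 of the 4473 were under 1.5-fold, and the median absolute log2 change of all genes was 0.19. In 4250 of the 4473, both libraries of one replicate lay on the same side of both libraries of the other, as they did in 59.2% of all genes tested. For the inhibitor in the same fit, 68 genes (0.465%) passed with more than 2-fold and 1164 (7.96%) passed. These counts rest on 1 residual degree of freedom and a very small spread within pairs, with a biological coefficient of variation of 0.024. The 123 became 4 by DESeq2, 8 when all 10 libraries set the spread and 1 without the treatment block, and the 4473 became 1084, 22 and 1. Without any 1 of the 4 libraries, in the edgeR fit of the other 9, where the treatment that lost a library has a single sample assumed to vary like the other groups, both counts were 0, with 1673 to 1766 genes at an unadjusted p under 0.05.

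Where the spread came from all 10 libraries, 22 genes kept an adjusted p under 0.01, 15 higher and 7 lower in replicate 2, and all 22 passed in the fit of the 4 libraries as well. EGR1 was among them, as were the ribosomal protein genes RPL36, RPS15 and RPS28, the respiratory chain gene COX8A, the U3 snoRNA genes SNORD3A and SNORD3B-2, and, among those lower in replicate 2, the chromatin remodelling genes ATRX and RSF1. The transcripts of ATRX and RSF1 are 5581 and 4438 bases long with 35.1% and 38.2% GC, and their log2 changes of -0.61 and -0.57 became -0.20 and -0.28 after the correction described below. A difference of the replicate contrast between GSK126 and DMSO was not called for any of 16564 genes by edgeR with an interaction term, with 195 genes at an unadjusted p under 0.05, nor by DESeq2, with 44. In the knockdown experiment 1 of 15373 genes (0.0065%) passed with more than 2-fold between replicate numbers, with 898 at an unadjusted p under 0.05, and 0 by DESeq2, with 347.

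The difference between replicates followed GC content and transcript length. With genes ranked by GC content and cut into 10 equal bins, the median log2 change of replicate 2 minus replicate 1 went from -0.26 in the lowest bin to 0.22 in the highest, and by length it went from 0.26 in the shortest bin to -0.23 in the longest. In the lowest GC bin 48.9% of genes passed lower and 0.752% higher, and in the longest bin 51.1% passed lower and 2.73% higher. After each library was corrected by regression on GC content and length, all of these bins had medians between 0 and 0.03. The regression removes trends with these same properties, so the flat medians follow from it. The corrected fit left 49 genes past adjusted p under 0.01 and 2-fold, of which 47 were among the 123. It left 1234 passing, 846 higher (5.79%) and 388 lower (2.65%). Of the 4473, 946 passed in the same direction after correction, 3492 no longer passed and 35 passed in the opposite direction. The share that passed also rose with the count, from 1.5% higher and 0.956% lower in the lowest of 10 bins by count to 37.0% and 28.6% in the highest.

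**Figure D3:**
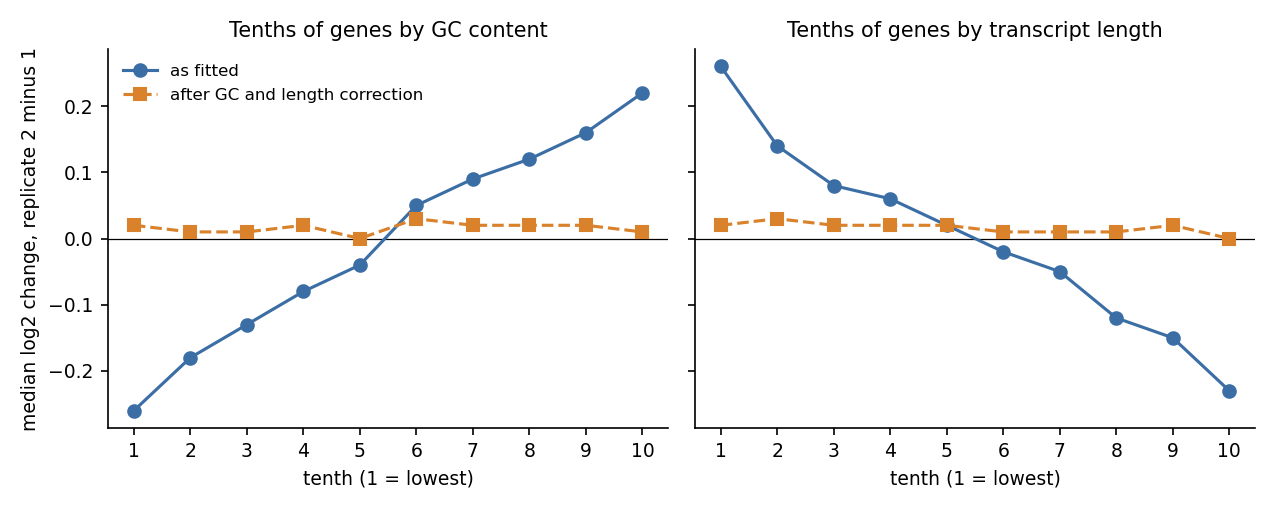
Median log2 change of replicate 2 minus replicate 1 in 10 bins of the 14624 genes with a known transcript, ranked by GC content (left) and by transcript length (right), as fitted (circles) and after correction for both (squares). The uncorrected medians run from -0.26 to 0.22 with GC content and from 0.26 to -0.23 with length, and the corrected ones stay between 0 and 0.03. The correction uses these same properties, so its flat medians follow from it.

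By position in the genome, the medians of the 22 autosomes ranged from -0.12 to 0.1 before and from -0.02 to 0.04 after correction for GC content and length together, and before correction they followed the median GC content of the chromosome's genes (r = 0.98 across 22 autosomes, a description). Over 252 windows of 10 Mb with at least 20 genes each, corrected medians lay between -0.11 and 0.12, with no window beyond 0.12 in either direction.

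Immediate early genes were higher in replicate 2. Of 34 measured members of the list, 22 passed higher and 3 lower, with a median log2 change of 0.23 against -0.01 over all genes tested. After correction for GC content and length, 17 passed higher and 1 lower, with a median of 0.17 against 0.02 over all genes. Over all genes tested 14.9% passed higher and 15.7% lower, and after correction 5.79% and 2.65%. The lists below are read against the same shares, which were not matched to the counts of a list. After correction 0.751% of genes passed in the lowest of 10 bins by count and 30.7% in the highest. A list of well counted genes can therefore exceed the shares of all genes through its counts. In 25 of the 34 both libraries of replicate 2 lay above both of replicate 1, and in 5 they lay below. Of all 14632 genes tested, 4192 lay above in this way and 4477 below.

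EGR1, a zinc finger transcription factor that serum response factor switches on, had the strongest difference among protein-coding genes with at least 200 counts. It lies on chromosome 5 from position 138465479 to 138469303 (GRCh38, plus strand). Its level was 19.9 CPM in DMSO replicate 1, 49.4 in DMSO replicate 2, 32.7 in GSK126 replicate 1 and 93.4 in GSK126 replicate 2. Both libraries of replicate 2 were thus above both of replicate 1, and GSK126 lay above DMSO within each replicate. The log2 change was 1.43 ± 0.06 (SE, adjusted p = 3.71e-19, edgeR), a 2.69-fold difference, and 1.40 after correction (adjusted p = 4.14e-09). DESeq2 also called it, and it kept an adjusted p under 0.01 with all 10 libraries (0.00481). In the 6 knockdown libraries EGR1 was lower than in any drug library, between 2.91 and 7.15 CPM. The stretch of its promoter that holds binding sites for serum response factor is shown because this factor is known to drive many immediate early genes; capitals mark the matches to the CArG box, its binding motif, at chr5:138465364-138465415 of GRCh38.p14 on the plus strand, between 105 and 73 bases before the start site (RefSeq).
EGR1: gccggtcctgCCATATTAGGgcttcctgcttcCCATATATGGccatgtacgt

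FOSB, a subunit of the AP-1 transcription factor, was at 6.76 CPM in DMSO and 7.18 in GSK126 of replicate 1, and at 13.4 and 15.5 in replicate 2. FOS, another AP-1 subunit, was at 20.9 and 29.3 in replicate 1 and at 36.6 and 47.7 in replicate 2. NR4A1, a nuclear receptor induced by growth factors, was at 9.01 and 9.66 against 15.7 and 17.1. For all 3 genes replicate 2 was higher under both treatments, by 1.05 ± 0.13, 0.75 ± 0.07 and 0.81 ± 0.11 on the log2 scale (SE), and the corrected changes were 0.98, 0.55 and 0.68. Their adjusted p-values by edgeR were 1.6e-08, 1.28e-10 and 3.02e-07. With all 10 libraries they rose to 0.0107, 0.0107 and 0.0435.

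Other members of the list passed in either direction. DUSP1, a phosphatase that inactivates MAP kinases, was at 80.8 CPM in DMSO and 90.5 in GSK126 of replicate 1, and at 114 and 133 in replicate 2 (log2 0.53 ± 0.04, corrected 0.43). DUSP5, a nuclear phosphatase of ERK, was higher by 0.41 (corrected 0.33), and IER5 and KLF10 by 0.36 and 0.29 (corrected 0.45 and 0.43). MYC was higher by 0.26 (corrected 0.19). SPRED1, an inhibitor of Ras signalling with a long transcript, was lower (log2 -0.56, corrected -0.16, not passing), and NR4A2, a relative of NR4A1, was lower as well (log2 -0.44, corrected -0.42). PHLDA1 was lower before the correction (log2 -0.12) and higher after it (0.14).

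HES1, a repressor downstream of Notch, was at 12.4 CPM in DMSO replicate 1 and 15.7 in GSK126 replicate 1, against 22.5 and 36.7 in replicate 2. KISS1, which codes for the precursor of kisspeptin and was first known as a metastasis suppressor, was at 10.9 and 20.1 against 23.3 and 41.0. Both were above 2-fold, with log2 changes of 1.06 ± 0.09 each (SE), and both were higher in replicate 2 whichever treatment was compared. After correction HES1 stayed at 1.00 (adjusted p = 5.23e-06) and KISS1, whose transcript is short and GC-rich, was at 0.65 (adjusted p = 7.34e-05). ID3, an inhibitor of basic helix-loop-helix factors, was at 13.6 and 7.7 CPM in replicate 1 and at 22.7 and 16 in replicate 2 (log2 0.87 ± 0.11, corrected 0.65). CCN2, a matricellular protein and YAP target, was at 266 and 388 CPM against 406 and 571 (log2 0.58 ± 0.03, corrected 0.55). For CCN2 and EGR1 the inhibitor difference within the same fit also passed, with log2 changes of 0.52 and 0.85 for GSK126 minus DMSO. By CPM, HES1 and KISS1 were also higher with GSK126 than with DMSO in each replicate, and ID3 was lower. For HES1, KISS1 and ID3 only the CPM are given, which does not mean that their inhibitor difference failed to pass.

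**Figure D4:**
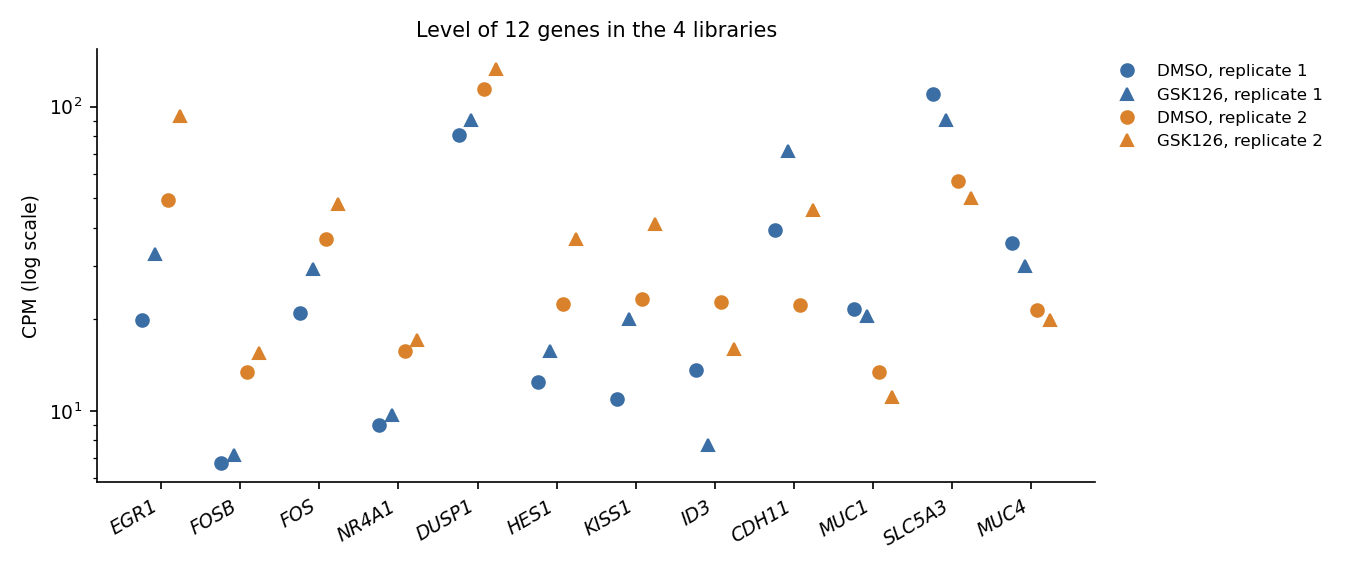
CPM of 12 genes on a log scale in each of the 4 libraries, with replicate 1 in blue, replicate 2 in orange, DMSO as circles and GSK126 as triangles. Replicate 2 lies above replicate 1 under both treatments for the genes from EGR1 to ID3, and below it from CDH11 to MUC4; only for CDH11 do the values of the 2 replicates overlap.

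The genes that were lower in replicate 2 and stayed lower after correction came from several functions. SLC5A3, a myo-inositol transporter that cells use to adjust to osmotic load and whose gene overlaps MRPS6 on the same strand, was at 110 CPM in DMSO and 90.3 in GSK126 of replicate 1, and at 56.8 and 50 in replicate 2. Both libraries of replicate 2 were below those of replicate 1, with a log2 change of -0.91 ± 0.05 (SE) and a corrected change of -0.48. The mucin MUC1 had 21.6 and 20.5 CPM in replicate 1 and 13.4 and 11.1 in replicate 2 (log2 -0.78, corrected -0.97), and the membrane mucin MUC4 had 35.6 and 30 against 21.4 and 19.9 (log2 -0.67, corrected -0.60). CDH11, a mesenchymal cadherin, was lower in replicate 2 within each treatment, at 22.2 against 39.3 CPM in DMSO and at 45.8 against 71.3 in GSK126, although the replicates overlapped across treatments (log2 -0.71 ± 0.06, corrected -0.70). ALPP, a placental alkaline phosphatase of low level here, was at 6.46 and 10.3 against 1.83 and 3.91 (log2 -1.57 ± 0.19). None of these had an adjusted p under 0.01 with all 10 libraries; the values were 0.0173 for SLC5A3, 0.102 for MUC1, 0.0268 for MUC4, 0.0854 for CDH11 and 0.0458 for ALPP.

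Messenger RNAs of the cytosolic ribosome were higher in replicate 2 without exception among the 56 measured, all 56 passing higher, with log2 changes from 0.12 to 0.76 and a median of 0.38. Together they took 3.26% and 3.37% of the expected counts in replicate 1 and 4.12% and 4.30% in replicate 2. RPL36, a protein of the large subunit, was at 332 CPM in DMSO and 326 in GSK126 of replicate 1 and at 511 and 544 in replicate 2. RPS29, of the small subunit, was at 161 and 159 against 264 and 278, the widest gap in the list at 0.76 ± 0.04 (SE). These transcripts are short, with a median of 674 bases against 2335 over all genes tested. After correction the median of the list was 0.12, 30 passed higher and none lower at an adjusted p under 0.01 by edgeR, and the changes ranged from -0.07 to 0.36. RPL36 was then at 0.29 and RPS29 at 0.26. With effective length as an offset RPL36 was at 0.58 and RPS29 at 0.47. With the longest annotated transcript as length, chosen after the data were seen, they were at 0.36 and 0.95. The corrected value of RPS29 thus lay below or above the uncorrected one, depending on the length used. How much of the difference fragment size carries was not tested beyond these corrections. In the knockdown libraries the list took between 2.32% and 4.29% of the counts.

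The nuclear genes of oxidative phosphorylation, the respiratory chain and ATP synthase of mitochondria, behaved alike. Of 41 measured, 31 passed higher and 1 lower, with a median of 0.26, and after correction 11 passed higher and 0 lower, with a median of 0.12. The shares of all genes tested were 14.9% and 15.7%, and 5.79% and 2.65% after correction. COX8A, a small subunit of cytochrome c oxidase, was at 186 and 184 CPM in replicate 1 and at 257 and 290 in replicate 2 (log2 0.56 ± 0.04, corrected 0.12). ATP5F1E, a subunit of ATP synthase, was at 140 and 139 against 200 and 202 (log2 0.52, corrected 0.77), but its deposited length of 3221 bases is the longest of the list. CYC1, cytochrome c1, was higher by 0.48 (corrected 0.25).

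Of 13 measured transcripts of the mitochondrial genome itself, 6 passed higher and 5 lower (median 0.04), and after correction 1 passed higher and 6 lower (median -0.07). All genes tested passed higher in 14.9% and lower in 15.7%, and after correction in 5.79% and 2.65%. Before correction the sign went with transcript length (r = -0.66 across the 13, a description, and 0.11 after correction). MT-ND5, at 1812 bases the longest, was at 3590 and 3410 CPM in replicate 1 and at 2620 and 2590 in replicate 2 (log2 -0.43 ± 0.02). MT-ND3, at 346 bases, was at 864 and 798 against 1070 and 1060 (log2 0.36 ± 0.03). MT-ND6, a complex I subunit like both and the only mRNA read from the light strand, was at 53.7 and 49.8 against 79.5 and 78.3 (log2 0.61 ± 0.05). After correction MT-ND3 was at 0.02, while MT-ND5 and MT-ND6 kept -0.38 and 0.40. MT-ATP8, of 207 bases, went from 0.11 to -0.47.

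The metallothionein and zinc list had 6 measured members, of which 3 passed higher and 1 lower. Metallothioneins, small cysteine-rich proteins that bind zinc and copper, were higher in replicate 2 as counted. MT2A was at 437 CPM in DMSO and 473 in GSK126 of replicate 1, and at 656 and 709 in replicate 2. MT1E was at 83.5 and 85.6 against 135 and 137, and MT1X at 15.2 and 21.8 against 27.6 and 31.5. The replicates did not overlap for any of the 3, with log2 changes of 0.59, 0.69 and 0.69. Their transcripts are short, and corrected changes were 0.08 for MT2A, 0.33 for MT1E and 0.28 for MT1X, of which only that of MT1E passed (adjusted p = 6.86e-05). With the longest annotated transcript as length the corrected changes were 0.33, 0.39 and 0.55, and all 3 passed. What remained after correction thus depended on the length used. SLC30A1, the zinc exporter that the same metal-sensing factor controls, was lower instead (log2 -0.32, corrected -0.03). The promoter of MT1X is shown since genes of this family share metal response elements; capitals mark matches to the core TGCNCNC on either strand, at chr16:56682310-56682433 of GRCh38.p14 on the plus strand, from 150 to 46 bases before the start site (RefSeq).
MT1X: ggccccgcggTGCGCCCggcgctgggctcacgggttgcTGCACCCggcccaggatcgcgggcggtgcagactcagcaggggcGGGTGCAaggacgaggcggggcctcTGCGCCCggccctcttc

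Genes of the cell cycle were slightly higher in replicate 2, and more clearly so after correction. Of 43 S phase genes, 14 passed higher and 2 lower (median 0.08), and after correction 13 higher and 0 lower (median 0.16). Of 44 G2/M genes, 15 passed higher and 9 lower (median 0.07), and after correction 21 higher and 0 lower (median 0.18). Among all genes tested 14.9% passed higher and 15.7% lower, and the lower share of G2/M genes was not far from the latter. After correction the shares of all genes were 5.79% and 2.65%. BIRC5, survivin, was at 100 and 107 CPM in replicate 1 and at 144 and 152 in replicate 2 (log2 0.51 ± 0.04, corrected 0.48). MCM7, a subunit of the replicative helicase, was at 309 and 343 against 407 and 449 (log2 0.39 ± 0.03, corrected 0.31). The 9 lower members included CENPE, a kinetochore motor, and KIF20B, a kinesin, which have long transcripts; their log2 changes of -0.36 and -0.38 became 0.10 and 0.06. The growth state of the cultures was not recorded in the labels.

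Among the genes the study is about, EZH2, the catalytic subunit of PRC2, was at 123 and 132 CPM in replicate 1 and at 124 and 141 in replicate 2 (log2 0.05 ± 0.04, adjusted p = 0.306). EED, another core subunit, differed by 0.08 ± 0.07 (adjusted p = 0.398). SUZ12, the third, was at 121 and 114 against 97.5 and 88.7, a log2 change of -0.34 that was -0.04 after correction. E2F1, the transcription factor whose targets the study follows, was at 83.6 and 101 against 106 and 117 (log2 0.28 ± 0.04, adjusted p = 3.75e-06), and this change did not pass after correction (0.16, adjusted p = 0.0249). E2F1 in DMSO replicate 2 was thus above E2F1 in GSK126 replicate 1. The study also followed CDC20, PLK1, CCNB1 and RRM2 after its knockdowns. These passed higher by 0.39, 0.29, 0.22 and 0.22, and by 0.25, 0.18, 0.23 and 0.20 after correction. A link between their change and that of E2F1 was not tested. Of the 15 PRC2 and E2F genes, 6 passed higher and 2 lower, and after correction 5 and 1. The lower share was close to the 15.7% of all genes tested, of which 14.9% passed higher.

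The metabolic and stress lists are read against the shares of all genes tested, 14.9% higher and 15.7% lower as counted and 5.79% and 2.65% after correction. These shares were not matched for count, and several of the lists hold well counted genes. Glycolysis genes passed higher in 11 of 17 and lower in 0 (median 0.16; corrected 5 and 0, median 0.09), led by SLC16A3, the lactate exporter MCT4, at 530 and 493 CPM in replicate 1 against 740 and 679 in replicate 2 (log2 0.47 ± 0.03, corrected 0.31). GAPDH, often taken as a constant reference, was at 4100 and 3800 against 5280 and 5000 (log2 0.38 ± 0.02, corrected 0.22). Targets of ATF4, the factor of the amino acid response, passed higher in 12 of 31 and lower in 2 (median 0.16; corrected 7 and 0, median 0.12), with SLC3A2, a chain of the cystine and leucine transporters, at 0.49 (corrected 0.38). The heat shock list had 11 of 17 higher and 2 lower (corrected 7 and 0, median 0.12 in both), the NRF2 list 9 and 3 of 23 (corrected 5 and 1), the p53 list 7 and 5 of 24 (corrected 4 and 1) and lysosomal genes 15 and 1 of 30 (corrected 4 and 1). FTL, ferritin light chain, was at 1860 and 1670 CPM against 2720 and 2250 (log2 0.49 ± 0.02, corrected 0.25). Fatty acid synthesis had 0 higher and 6 lower of 13 (corrected 0 and 1); SCD, stearoyl-CoA desaturase, was at 1900 and 1760 against 1570 and 1450 (log2 -0.28 ± 0.02, corrected -0.10). Cholesterol genes had 4 higher and 7 lower of 24 (corrected 0 and 1). Chaperones of the endoplasmic reticulum passed higher in 5 and lower in 10 of 23, which left 1 and 1 after correction, hypoxia targets in 5 and 6 of 29 (corrected 2 and 2) and clock genes in 0 and 2 of 16 (corrected 0 and 0).

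Interferon-stimulated genes were lower in replicate 2 as counted, with 4 higher and 12 lower of 37 and a median of -0.21. After correction 0 passed higher and 2 lower, with a median of -0.12. Of all genes tested 14.9% passed higher and 15.7% lower as counted, and 5.79% and 2.65% after correction. SAMD9, an antiviral effector, was at 76.1 and 69.4 CPM against 53.3 and 50.4 (log2 -0.49 ± 0.05, corrected -0.08), and RIGI, the cytosolic RNA sensor, at 65.9 and 61.3 against 47.4 and 44.6 (log2 -0.47 ± 0.06, corrected -0.20). NF-kB feedback genes passed in 0 of 17 higher and 5 lower (corrected 0 and 4). BIRC3, an inhibitor of apoptosis that NF-kB induces, was at 88.0 and 79.6 against 57.9 and 51.1 (log2 -0.62 ± 0.05, corrected -0.35). The chemokine and cytokine list had 5 higher and 2 lower of 17 (corrected 2 and 1), with IL24, a cytokine of the IL-10 family, at 21.1 and 27.8 CPM against 36.5 and 36.9 (log2 0.59 ± 0.08, corrected 0.60). Genes of MHC class I presentation split 4 to 2 of 15 (corrected 1 and 1).

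Adhesion and matrix lists had passing members in both directions, several of them at shares close to those of all genes tested, 14.9% higher and 15.7% lower. Tight junction and epithelial adhesion genes passed higher in 4 and lower in 7 of 20 (median -0.18; corrected 2 and 3, median -0.08), including OCLN, occludin, at 42.0 and 35.2 CPM against 28.9 and 20.8 (log2 -0.64 ± 0.08, corrected -0.48). YAP and TEAD targets split 5 to 11 of 27 before and 5 to 1 after correction. TGFB2, a TGF-beta ligand in that list, was at 200 and 212 CPM against 136 and 145 (log2 -0.55 ± 0.04, corrected -0.26), opposite to CCN2. The TGF-beta response had 7 and 3 of 24 (corrected 3 and 1), collagens and matrix proteins 7 and 3 of 33 (corrected 8 and 1), matrix proteases and inhibitors 9 and 6 of 26 (corrected 7 and 2), and integrins and focal adhesion 4 and 8 of 24 (corrected 2 and 2). TIMP3, an inhibitor of matrix metalloproteases, was at 525 and 512 against 388 and 400 (log2 -0.40 ± 0.03, corrected -0.27). Glucocorticoid response genes passed in 3 and 0 of 11 (corrected 2 and 2). Of 6 measured targets of the aryl hydrocarbon receptor 2 passed higher and 1 lower (corrected 1 and 1), the higher ones being CYP1A1 (log2 0.86, corrected 0.82, which no longer passed at an adjusted p of 0.0287, edgeR) and AHRR, whose reads are shared with another gene model, and the lower one CYP1B1, an oxidising enzyme, at 230 and 247 CPM against 141 and 176 (log2 -0.60 ± 0.04, corrected -0.37).

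**Figure D5:**
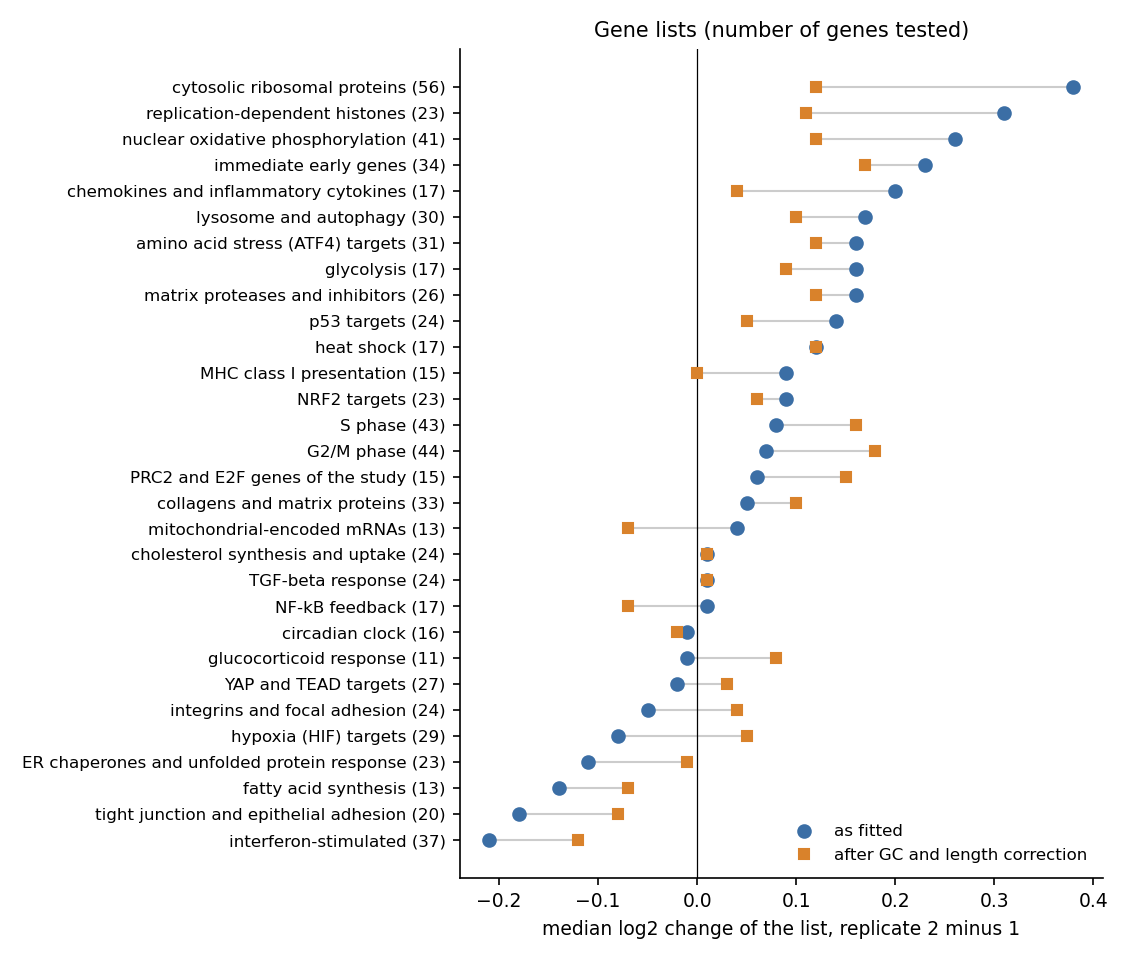
Median log2 change of replicate 2 minus replicate 1 for each gene list with at least 10 genes tested, marker lists left out, as fitted (circles) and after correction for GC content and length (squares). Ribosomal proteins move from 0.38 to 0.12, while immediate early genes keep 0.17 of 0.23 and the G2/M list goes from 0.07 to 0.18.

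The genes past 2-fold were mostly not well counted genes. Of the 123, 112 had a mean under 200 counts, the median of their mean counts was 31.2 against 433 over all genes tested, and 55 were protein-coding, 27 lncRNA, 26 pseudogenes and 15 of other kinds. In 85 of the 123 (69.1%) the posterior spread of the count, which is above 0 where reads are shared with other genes, exceeded 5% of the count in at least 1 library, against 7.75% of all genes tested. They included overlapping gene models such as CDRT4 and the readthrough gene TVP23C-CDRT4, where CDRT4 was at 14.6 and 3.76 CPM in replicate 1 and at 1.88 and 1.4 in replicate 2 while TVP23C-CDRT4 was at 3.76 and 13.7 against 17.9 and 15.9. UTP14C, which overlaps ALG11, was at 4.71 and 1.27 against 0 and 0. The changes of such genes are uncertain, as are those of BOLA2B (log2 1.10), a copy within a duplicated segment, of H4C11 (log2 1.92), a histone gene, and of AHRR (log2 1.93), a repressor of the aryl hydrocarbon receptor. Of the 123, 22 had transcripts under 500 bases, all 22 higher in replicate 2, while such genes made up 1.4% of those tested.

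SNORD3A, a gene of the U3 small nucleolar RNA that guides ribosomal RNA processing and has no poly(A) tail, was at 1.55 and 1.5 CPM in replicate 1 and at 6.7 and 7.47 in replicate 2. The related SNORD3B-2 was at 4.06 and 5.56 against 22 and 21. Replicate 2 lay above replicate 1 under both treatments, with log2 changes of 2.20 and 2.17 and with 1.92 and 1.91 after correction, and both passed with all 10 libraries (adjusted p = 0.00158 and 0.000668). In the knockdown libraries SNORD3A ranged from 2.43 to 18.5 CPM. RNAs without poly(A) tails did not share a direction, with 3 higher and 2 lower of 7 measured (corrected 1 and 1). MALAT1, a nuclear lncRNA of that list, was at 660 and 533 CPM against 529 and 410 (log2 -0.35, corrected -0.10). Of 23 measured replication-dependent histone genes 3 passed higher and 0 lower, and after correction 0 and 1. The share that passed higher was near the 14.9% of all genes tested.

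Markers of the cell line were present in all 4 libraries, where fewer cells of a type and less RNA per cell cannot be told apart. VIM, vimentin, was between 2590 and 3420 CPM and CD44 between 706 and 792, while the luminal genes ESR1, PGR and FOXA1 had at most 0.116 CPM, below the floor of 3 counts. The keratins KRT8, KRT18 and KRT19, which luminal cells share with many carcinoma lines, lay between 643 and 1600 CPM. Of 10 MDA-MB-231 markers 3 passed higher and 5 lower (corrected 2 and 1), and of 10 measured luminal markers 3 higher and 1 lower (corrected 0 and 0). LGALS1 was among the higher (log2 0.38, corrected -0.04), and S100A4 among the lower (log2 -0.27, corrected -0.62). None of the measured fibroblast (4) or HEK293T (2) markers passed by edgeR, and 1 of 2 leukocyte markers did, CD68, which tumour cells also express, while CD3E and PTPRC were at most 0.637 CPM and DCN, LIN28B and PAX2 were at 0.

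Short motifs of known regulators were counted in the 250 bases before the start site in the RefSeq promoters of 10775 tested genes. The CArG box was found in 8.7% of the tested immediate early genes (2 of 23, EGR1 and SRF) against 0.993% of all tested genes and 1.14% of all 27305 promoters. In S phase genes the E2F site TTTCCCGC was found in 9 of 36 (25%) against 2.29%, and in 5 of the 13 that passed higher. In G2/M genes the cell cycle homology region TTTGAA was found in 19 of 38 (50%) against 8.29%, and in 6 of the 12 that passed higher. The heat shock element GAANNTTC was in 7 of 16 heat shock genes (43.8%) against 4.11%, and in 5 of the 10 that passed higher. The interferon element GAANNGAAA was in 12 of 28 listed genes (42.9%) against 5.15%, and in 0 of the 4 that passed higher. In the other lists the counts were as follows, over all members tested and then over those that passed higher. The ATF4 element TGATGNAA was in 4 of 27 targets (14.8%) and 0 of 11, the hypoxia element TACGTG in 7 of 23 (30.4%) and 0 of 3, the NRF2 element TGACNNNGC in 4 of 16 (25%) and 1 of 7, and the TEAD site GGAATG in 7 of 20 (35%) and 1 of 4. Over all tested genes these were found in 1.31%, 2.97%, 12.2% and 9.4%. The sterol element TCACNCCAC was in 1 of 18 cholesterol genes (5.56%) against 0.872%, and the xenobiotic element TTGCGTG in 0 of 4 targets against 1.37%. The core TGCNCNC of the metal response element is short and was found in 56.4% of all tested genes. Both strands were searched, and a match describes the letters only.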

How the data were processed

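RNA-seq covered cells of the MDA-MB-231 line. Per the labels and the study's methods, the authors mapped reads with STAR (2.7.2b in the submitters' processing notes) to hg38 and estimated gene abundance with RSEM (1.3.1), and deposited expected counts, TPM (scaled by gene length and library) and gene lengths for 62703 genes. TPM entered no test. Of 18 records 8 held the same values as another and were set aside. Whether reads were counted by strand is not given in the sources used here.

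Expected counts, rounded, were fitted with edgeR 4.0.16 (quasi-likelihood, TMM, its default low-count filter, treatment plus replicate, R 4.3.3) and adjusted by Benjamini-Hochberg over all genes tested. CPM are TMM-scaled and compare libraries, not genes. Alternatives were DESeq2 1.42.0, other scalings, filters, thresholds and sample sets, and each library corrected by splines (5 df) of GC content and log length. Length came from the deposited files, and GC content from the GENCODE v44 transcript nearest in length. The files name 62703 genes, of which 62625 (99.9%) matched GENCODE v44.

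Genes were named by rules on size and count: called protein-coding genes with a mean of at least 200 counts whose replicates do not overlap, the 5 largest CPM differences per direction, up to 4 called members per list, the study's genes and the markers. Since few genes passed 2-fold, list members and other genes that passed at adjusted p under 0.01 without a fold, also after the correction, were named as well, and the CArG box was searched, both chosen after values were seen. The members, the 38 gene lists and the alternatives were chosen with earlier results of these data known. On simulated data (14408 genes, 199 changed, for the replicate comparison), 84.8% of 2-fold changes reached the adjusted p and 97% of 4-fold changes were called, with 0 false calls. The simulation took its spread from the drug libraries themselves. It held no difference in fragment size, GC content or shared reads between replicates, so the 0 false calls do not cover these. Results for 3 genes are not reported here.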

Additional observations from a re-analysis of the deposited data

How the results depend on the processing

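The counts moved with the assumed spread, the filter on counts and the corrections for length and GC content, and stayed within 1.5 times under other scalings. Genes past adjusted p under 0.01 and 2-fold between replicates numbered 123, and 4 by DESeq2 (which gave no adjusted p to 6525 low-count genes), 41 with a mean of at least 50 counts, 1 without the treatment block, 26 with effective length as an offset, 49 after correction for GC content and length, 8 with all 10 libraries, 0 without any 1 of the 4 libraries (a range of 0 to 0, in a fit where 1 pair remains), 4473 without the fold and 5865 at adjusted p under 0.05 without the fold. The 4473 became 1084, 1, 771, 1234 and 22 under DESeq2, no treatment block, effective length, the correction and all 10 libraries, and 0 to 0 without 1 library. With the longest annotated transcript as length, a choice made after seeing the data, the counts were 84 and 2391. Other scalings and no filter gave 136 to 151 genes past 2-fold. The count without a fold was also added after seeing the data.

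For the pairing by replicate number, GSK126 against DMSO gave 68 genes with the replicate block, 0 without it (577 at an unadjusted p under 0.05, edgeR) and 0 by DESeq2 (841). The knockdown replicates gave 1 gene, 0 by DESeq2, and 4, 13 and 5 without the control shRNA, shEZH2 and shE2F1 pair.

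Of 98 genes followed singly, the sign changed for MT-ATP8 (-0.44 with effective length, -0.47 and -0.43 under the 2 corrections), CENPE (0.10 and 0.01), KIF20B (0.06), LGALS1 (-0.04 and -0.03) and EED (-0.03 to 0.22 without 1 library). The median of RNAs without poly(A) tails went to -0.10 under both corrections, that of chemokines and cytokines to -0.01 with the longest transcript, and that of leukocyte markers to 0.24 with a mean of at least 50 counts. With all 10 libraries 91 of the 98 kept their sign but no longer passed. Of the 123 genes, 112 had a mean under 200 counts, where depth limits precision.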
